A study of Mus musculus with 10 samples.

Results

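Osteocytes and osteoclasts are the cells that sense and resorb bone, and 10 of their genes were followed in the inner ear of mice with and without a running wheel. The osteocyte genes were Dmp1, Sost, Phex, Mepe and Fam20c, and the osteoclast genes were Acp5, Ctsk, Ocstamp, Dcstamp and Atp6v0d2. They were taken by symbol, as probe sets annotated with exactly 1 gene, and all 10 were found, each by 1 probe set, among 29765 genes tested. The samples were 10 arrays of total RNA from tissue labelled cochlea, taken from CBA/CaJ mice aged 6 months with normal hearing, a strain that loses hearing late in life. Every mouse lived alone in its cage, with a wheel to run on for the 5 runner samples and with none for the 5 control samples. The study asks whether prolonged wheel running alters the loss of hearing in old age, and these arrays hold its 6-month time. Sex, distance run and the number of ears in a sample are not in the labels. Nor do they say that arrays are separate animals, and a p-value then reflects only how far these samples spread, which may be technical.

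The cochlea is enclosed in bone, the otic capsule, which is remodelled far less than other bone. Osteocytes are former osteoblasts walled into the matrix, and they set mineralization and phosphate balance and restrain bone formation through sclerostin, a secreted inhibitor of Wnt signalling. Osteoclasts arise by fusion of cells of the monocyte lineage under the cytokines M-CSF and RANKL, seal off a patch of bone, acidify it with a proton pump and digest its matrix with secreted enzymes. In the inner ear, osteoprotegerin, the decoy receptor for RANKL, is known to hold osteoclasts back.

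None of the 10 genes passed the test between runners and controls, at a limma adjusted p between 0.583 and 1.0, against 2 of 29765 genes, or 0.00672%, that did. The count was 0 of 10 without runner 1 as well, where 0.333% of all genes passed. Phex was the 1 member at an unadjusted p under 0.05, where 7.13% of all genes lay, and its direction was lower in runners. Of the members 6 were lower and 4 higher in runners by the sign of the difference, and 49.5% of all genes were lower. The 2 groups of arrays overlapped for all 10 genes, while they did not overlap for 0.927% of all genes.

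The sequence before the start of a gene is shown for 4 osteocyte genes and 1 osteoclast gene. Of the osteocyte genes shown, Phex, Sost and Mepe were lower in runners by the sign of the difference and Dmp1 was higher, none of them called. Ctsk of the osteoclast genes stands beside them. Of the 10 members 7 had an entry in RefSeq's table of starts (build GRCm38.p6), and Ocstamp, Dcstamp and Atp6v0d2 had none. Each line gives the 250 bases before the start, 5′ to 3′ on the gene's strand, with 2 motifs in capitals. They are TTTAAA, close to the TATA element that positions transcription starts, and TGTGGT with its complement ACCACA, the core bound by RUNX factors of bone cells. Both motifs were chosen after the sequences had been read, both strands were searched, and in these windows they did not overlap. The windows are chrX:157415287-157415536 (minus strand) for Phex, chr11:101967016-101967265 (minus strand) for Sost, chr5:104325079-104325328 (plus strand) for Mepe, chr3:95498960-95499209 (plus strand) for Ctsk and chr5:104202367-104202616 (plus strand) for Dmp1, the later of 2 listed starts along its strand. The other window of Dmp1 held neither motif.
Phex: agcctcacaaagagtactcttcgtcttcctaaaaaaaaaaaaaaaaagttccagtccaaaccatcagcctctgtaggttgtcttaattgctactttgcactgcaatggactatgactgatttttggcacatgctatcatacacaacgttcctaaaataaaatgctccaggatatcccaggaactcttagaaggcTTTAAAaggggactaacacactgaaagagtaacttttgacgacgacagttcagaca
Sost: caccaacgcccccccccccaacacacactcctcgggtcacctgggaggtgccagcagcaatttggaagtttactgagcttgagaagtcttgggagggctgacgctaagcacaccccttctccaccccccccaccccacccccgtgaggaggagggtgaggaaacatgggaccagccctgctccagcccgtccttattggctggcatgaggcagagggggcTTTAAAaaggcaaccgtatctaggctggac
Dmp1: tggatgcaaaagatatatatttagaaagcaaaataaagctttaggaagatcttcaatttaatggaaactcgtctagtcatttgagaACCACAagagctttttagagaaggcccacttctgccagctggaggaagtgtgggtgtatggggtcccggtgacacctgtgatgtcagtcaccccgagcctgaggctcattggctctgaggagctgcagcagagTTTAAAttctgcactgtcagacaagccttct
Mepe: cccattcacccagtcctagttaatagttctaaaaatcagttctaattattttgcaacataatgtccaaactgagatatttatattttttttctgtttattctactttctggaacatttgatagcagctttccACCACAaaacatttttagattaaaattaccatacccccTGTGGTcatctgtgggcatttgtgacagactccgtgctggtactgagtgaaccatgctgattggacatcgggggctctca
Ctsk: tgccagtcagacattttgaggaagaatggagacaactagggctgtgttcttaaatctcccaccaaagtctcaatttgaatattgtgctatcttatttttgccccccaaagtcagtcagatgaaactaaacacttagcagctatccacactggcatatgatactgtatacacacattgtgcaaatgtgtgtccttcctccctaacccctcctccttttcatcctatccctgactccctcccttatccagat

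TTTAAA began 30 bases before the start of Sost, 31 before that of Dmp1 and 56 before that of Phex. In 1 of the 3 windows of the osteoclast gene Acp5 it began 233 bases before the start. Of 32851 windows of the same length in the table, 12.1% held it anywhere and 1.91% held it beginning within 40 bases of the start. The window of Dmp1 held ACCACA beginning 164 bases before the start, and that of Mepe held ACCACA at 118 and TGTGGT at 80. The RUNX core in either orientation lay in 14% of all windows. The Ctsk window held neither motif, nor did that of Fam20c, which was 81.2% G and C against 39.2% for Phex. A match describes the letters in the window and says nothing of whether a factor binds there.

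Phex encodes an endopeptidase of the osteocyte surface whose loss raises the phosphate-wasting hormone FGF23 and causes X-linked hypophosphataemia. Its log2 level in controls 1 to 5 was 7.88, 8.06, 7.69, 8.12 and 8.15, and in runners 1 to 5 it was 7.91, 7.69, 7.33, 7.59 and 7.38. Runners 3, 4 and 5 lay below every control, runner 2 was level with control 3, the lowest control, and runner 1 lay among the controls. Controls averaged 7.98 ± 0.19 (SD, n = 5), and runners averaged 7.58 ± 0.24 (SD, n = 5). The difference, runner minus control, was -0.40 ± 0.12 (SE) on the log2 scale, or 1.32-fold, which did not pass (limma adjusted p = 0.583, unadjusted p = 0.00517). It was -0.48 without runner 1 (limma adjusted p = 0.0704), where 0.333% of all genes passed and 8.59% were lower at an unadjusted p under 0.05. It was -0.50 without runner 1 and control 1 (limma adjusted p = 0.0600), where these shares were 1.41% and 9.06%.

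Dmp1 encodes an acidic phosphoprotein of the bone matrix that is needed for osteocytes to mature and for normal mineralization. It read 8.36, 8.47, 8.51, 8.52 and 8.36 log2 in controls 1 to 5 and 8.65, 8.26, 8.49, 8.96 and 8.62 in runners 1 to 5. Runners 1, 4 and 5 were above every control and runner 2 was below every control, so the runners lay on both sides of a narrow control range. The difference was 0.15 ± 0.10 (SE; limma adjusted p = 0.784), in the opposite direction to Phex. It was 0.24 without runner 2 and 0.064 without runner 4. The SD over runners was 0.26 and that over controls 0.078.

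Sost encodes sclerostin, made in bone by osteocytes. Its log2 level was 7.59, 7.69, 7.65, 7.61 and 7.54 in controls 1 to 5 and 8.01, 7.43, 7.43, 7.23 and 7.65 in runners 1 to 5. Runner 1 was the highest of all arrays, runners 2, 3 and 4 were below every control, and runner 5 lay among the controls. The difference was -0.066 ± 0.12 (SE; limma adjusted p = 0.930), with an SD of 0.30 over runners and 0.059 over controls. Without runner 1 it was -0.18 ± 0.0775 (SE; limma adjusted p = 0.305), and without runner 4 it was 0.013 ± 0.11 (SE). The size and the sign of the Sost difference thus rested on single runners.

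Mepe encodes a matrix phosphoglycoprotein of osteocytes of the same family as Dmp1, and its gene lies near Dmp1 on chromosome 5. On the log2 scale it stood at 8.10, 8.0, 7.99, 8.01 and 8.04 in controls 1 to 5 and 8.22, 7.91, 7.92, 8.0 and 8.06 in runners 1 to 5. Runner 1 was again the highest array, and runners 2 and 3 were the 2 lowest. The difference was -0.0063 ± 0.064 (SE; limma adjusted p = 0.991). Fam20c encodes the secretory-pathway kinase that phosphorylates Dmp1, Mepe and their relatives. Controls and runners lay close together on the log2 scale, at 7.12, 7.01, 7.06, 6.97 and 7.01 in controls 1 to 5 and 6.94, 6.87, 6.91, 6.89 and 7.05 in runners 1 to 5. All runners except runner 5 were below every control, yet the difference was small, at -0.10 ± 0.054 (SE; limma adjusted p = 0.729).

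**Figure D1:**
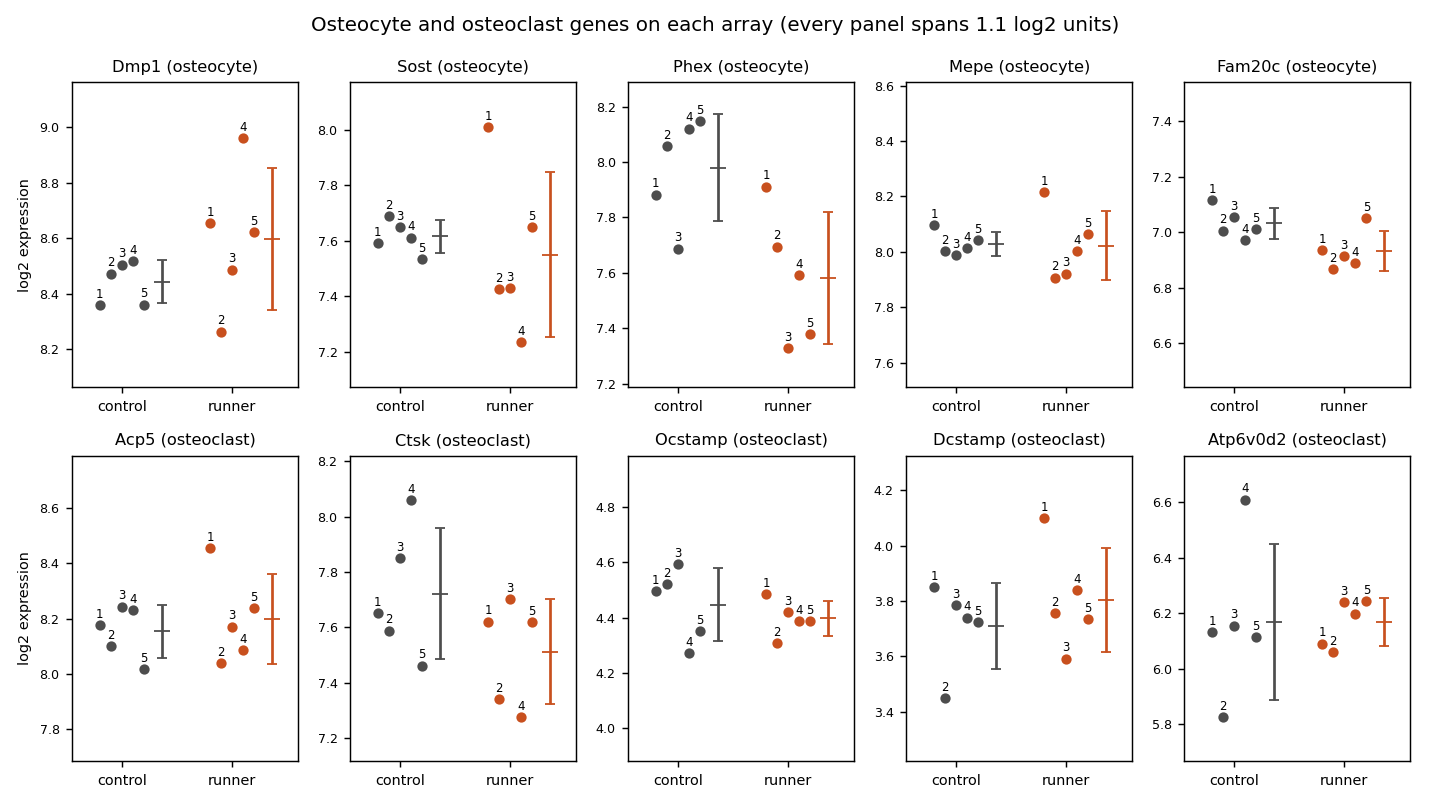
Log2 expression (vertical axis) of the 10 genes on each array, controls in grey and runners in orange, with the replicate number above each point and the group mean ± SD (n = 5) beside the points. Every panel spans the same log2 range. The groups overlap in all 10 panels, runners 3, 4 and 5 lie below all controls for Phex, and runner 1 is the highest array for Sost, Mepe, Acp5 and Dcstamp.

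Among the osteoclast genes, Acp5 encodes tartrate-resistant acid phosphatase, the classical stain for osteoclasts, which macrophages also make. Its log2 level was 8.18, 8.10, 8.24, 8.23 and 8.02 in controls 1 to 5 and 8.45, 8.04, 8.17, 8.09 and 8.24 in runners 1 to 5. Only runner 1 lay outside the control range, above it, and the difference was 0.045 ± 0.080 (SE; limma adjusted p = 0.931). Without runner 1 it was -0.020 ± 0.066 (SE). Ctsk encodes cathepsin K, the protease that digests type I collagen in the resorption pit, and fibroblasts can express it as well. Its log2 level was 7.65, 7.59, 7.85, 8.06 and 7.46 in controls 1 to 5 and 7.62, 7.34, 7.70, 7.28 and 7.62 in runners 1 to 5. Runners 2 and 4 were below every control, control 4 was the highest array, and the difference was -0.21 ± 0.12 (SE; limma adjusted p = 0.735). It was the largest difference among the osteoclast genes, and it was -0.13 without control 4.

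Atp6v0d2 encodes the d2 subunit of the proton pump, which osteoclasts favour over the widespread d1. The log2 values were 6.13, 5.82, 6.16, 6.61 and 6.11 in controls 1 to 5 and 6.09, 6.06, 6.24, 6.2 and 6.24 in runners 1 to 5. The runners lay between controls 2 and 4, the lowest and the highest array, and the difference was 0.00020 ± 0.11 (SE; limma adjusted p = 1.0). Ocstamp and Dcstamp encode membrane proteins needed for the fusion of osteoclast precursors. They were the 2 members with a mean log2 value under 5 over the 10 arrays, a dim signal at which a true difference can be understated. Ocstamp lay between 4.27 and 4.59 in controls and between 4.31 and 4.48 in runners (difference -0.050 ± 0.068 SE; limma adjusted p = 0.904). Dcstamp lay between 3.45 and 3.85 in controls and between 3.59 and 4.10 in runners (0.094 ± 0.097 SE; limma adjusted p = 0.864). No runner lay outside the control range for Ocstamp, and runner 1 was above it for Dcstamp.

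The 95% confidence intervals of the limma fit give the range of differences these arrays allow. The intervals rest on the spread of these samples, which may be technical. All but that of Phex held 0. For Mepe the interval ran from -0.15 to 0.13 log2, so a difference of 1.11-fold or more in either direction lay outside it. For Acp5 it ran from -0.13 to 0.22 and for Fam20c from -0.22 to 0.018. Dmp1 (-0.073 to 0.38), Sost (-0.32 to 0.19), Ctsk (-0.46 to 0.042) and Atp6v0d2 (-0.25 to 0.25) were less closely bounded, up to 1.38-fold for Ctsk. The interval of Phex ran from -0.65 to -0.14, the farther end being 1.57-fold lower in runners. Bglap and Bglap2, the near-identical genes of the osteoblast protein osteocalcin and the 2 genes that passed among all 29765, lay farther from 0 than any of the 10. Bglap differed by -0.85 (interval -0.99 to -0.70; limma adjusted p = 0.000402) and Bglap2 by -0.95 (-1.13 to -0.77; limma adjusted p = 0.000806). No member's interval reached either value, and the differences between genes were not tested.

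**Figure D2:**
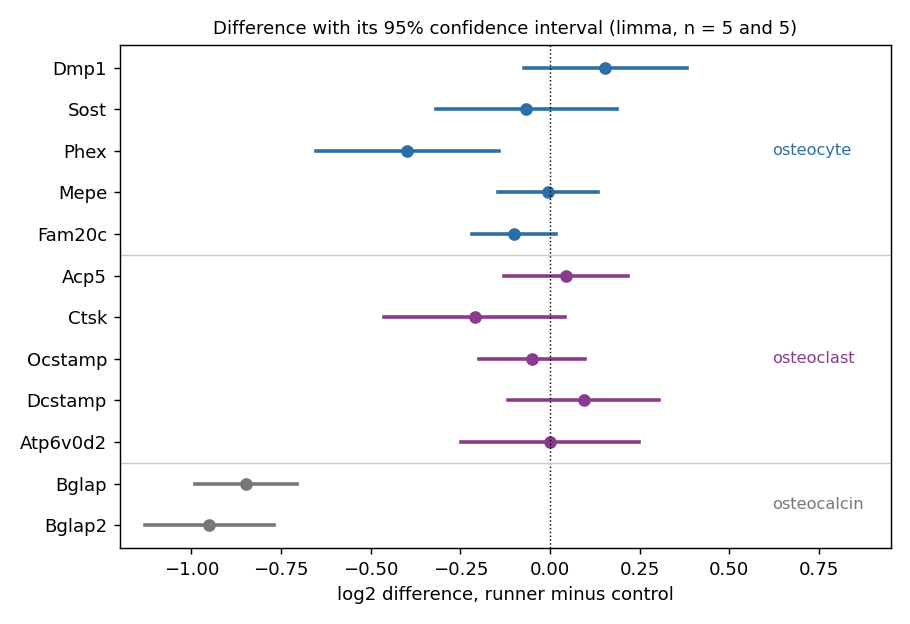
Difference between runners and controls (horizontal axis, log2, runner minus control) of the 10 genes and of the osteocalcin genes Bglap and Bglap2, with the 95% confidence interval of the limma fit (n = 5 and 5). The interval of Phex, -0.65 to -0.14, is the only member's that leaves out 0, and those of Bglap and Bglap2 lie below it.

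Set against each other, osteocyte and osteoclast genes differed little in how far runners stood from controls. The median difference was -0.066 over the 5 osteocyte genes, 4 of them lower, and 0.0002 over the 5 osteoclast genes, 2 of them lower, beside a median of 0.0009 over all genes. Averaged per array relative to each gene's control mean, the osteocyte genes stood between -0.042 and 0.027 in controls. In runners 1 to 5 they stood at 0.13, -0.19, -0.20, -0.084 and -0.067, so that every runner except runner 1 lay below every control. This was not a shift of all 5 genes, since on runner 5 only Phex lay below every control. The osteoclast genes stood between -0.14 and 0.14 in controls and at 0.11, -0.14, -0.015, -0.083 and 0.0049 in runners 1 to 5, all within the control range. The mean difference was -0.083 for osteocyte and -0.024 for osteoclast genes, and -0.059 between them, less than the SD over controls of that contrast, 0.13. With 1 array left out in turn, the osteocyte mean ranged from -0.14 (without runner 1) to -0.053 (without runner 3). The osteoclast mean ranged from -0.060 (without control 2) to 0.011 (without control 4), so its sign turned, and the contrast from -0.091 (without control 3) to -0.017 (without control 2). The 4 osteocyte genes other than Phex averaged -0.0044. These means are descriptions, since the members were chosen with earlier results of these data known.

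Markers of other cell types were measured on the same arrays. Relative to controls, 12 macrophage markers, whose lineage gives rise to osteoclasts and which share Acp5 expression with them, stood at 0.14 on runner 1 and between -0.25 and -0.19 on runners 2 to 5. Of these 12, 10 were lower and 2 higher in runners, 5 and 1 at an unadjusted p under 0.05 and 0 after adjustment. Over all genes 49.5% were lower, and 3.92% were lower at that p. Cx3cr1 (-0.31 ± 0.0605 SE) and Ms4a7 (-0.27 ± 0.080 SE, with a mean under 5) led the macrophage markers. The mean level of the 12 lay between 6.48 and 6.66 log2 in controls and between 6.34 and 6.73 in runners. In controls the mean level was 8.61 to 8.85 for cerebellar, 8.24 to 9.01 for skeletal muscle and 9.01 to 9.38 for neutrophil markers. For erythroid, fibrocyte, chondrocyte and hair cell markers it was 7.98 to 8.48, 7.69 to 7.93, 5.94 to 6.10 and 5.07 to 5.24. Median differences were -0.15 over 10 neutrophil, -0.22 over 7 erythroid, -0.16 over 7 chondrocyte, -0.20 over 7 fibrocyte and fibroblast, -0.14 over 9 hair cell, -0.042 over 6 skeletal muscle and 0.15 over 5 cerebellar markers, with 0 genes called in any. Averaged per array, the neutrophil, erythroid, chondrocyte, fibrocyte and hair cell lists stood above their control mean on runner 1 and below it on runners 2 to 5. The control and runner ranges were -0.21 to 0.16 and -0.29 to 0.21 for neutrophil, -0.27 to 0.23 and -0.43 to 0.12 for erythroid, and -0.091 to 0.16 and -0.50 to 0.14 for fibrocyte markers. They were -0.080 to 0.078 and -0.24 to 0.040 for chondrocyte and -0.10 to 0.069 and -0.35 to 0.057 for hair cell markers. For the chondrocyte, fibrocyte, hair cell and macrophage lists, runners 2 to 5 lay below every control. The cerebellar list ran the other way, at -0.19 on runner 1 and between 0.10 and 0.30 on runners 2 to 5. Of the 9 hair cell markers 4 had a mean under 5. The part of these cell types in the values of the 10 genes was not tested. In a ground whole tissue, fewer cells of a type and less RNA per cell cannot be told apart.

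**Figure D3:**
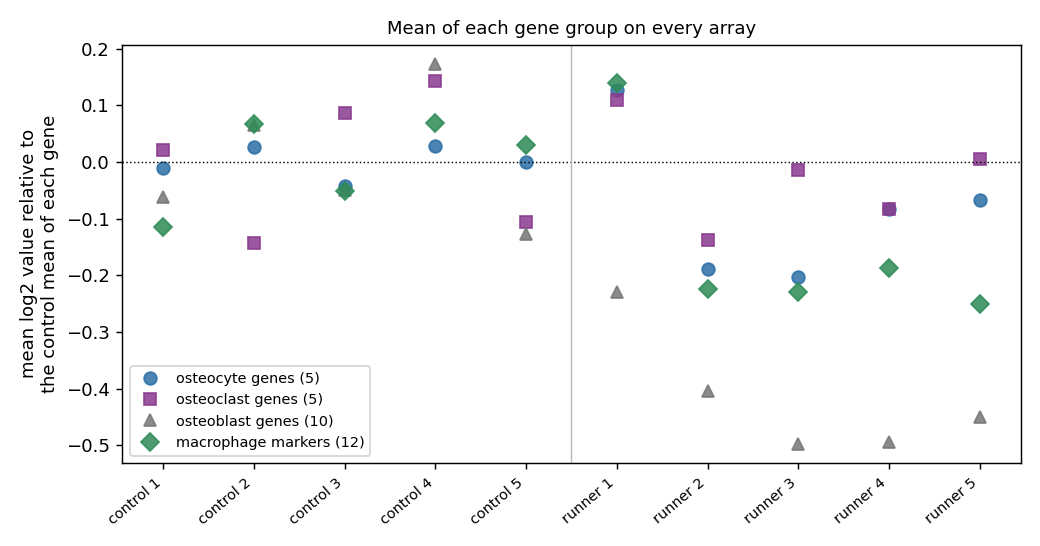
Mean of the 5 osteocyte genes, 5 osteoclast genes, 10 osteoblast genes and 12 macrophage markers on each array (vertical axis, log2 relative to each gene's control mean). Runner 1 stands above 0 for all groups except the osteoblast genes, where it is at -0.23, and runners 2 to 5 stand below 0 for the osteocyte, osteoblast and macrophage groups.

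The osteoblast list describes the stage before the osteocyte, and its median difference was farther below 0 than that of the osteocyte genes, which was not tested. All 10 measured of 12 listed were lower in runners, 6 at an unadjusted p under 0.05 and 2, Bglap and Bglap2, after adjustment over all genes, with a median of -0.26 against -0.066. Over all genes 49.5% were lower, and 3.92% were lower at that unadjusted p. Phex, at -0.40, was farther from 0 than 6 of the osteoblast genes. Per array the osteoblast genes averaged between -0.13 and 0.17 in controls and between -0.50 and -0.23 in runners, without overlap, runner 1 included. That average includes Bglap and Bglap2, the 2 genes called, and is not given without them. The other genes of the list are therefore not shown to separate the groups. Col1a1, a chain of type I collagen, differed by -0.61 ± 0.11 (SE; limma adjusted p = 0.172), against -0.21 for Ctsk, whose product digests that collagen. Without runner 1, where 0.333% of all genes passed, the Col1a1 difference was -0.65 (limma adjusted p = 0.0481). The osteoblast result was known when the lists were drawn up.

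The partners of the osteocyte proteins gave no call either. Ibsp and Dspp, the measured relatives of Dmp1 and Mepe in the SIBLING family of mineral-binding matrix proteins, differed by -0.22 ± 0.13 and 0.073 ± 0.055 (SE). Dspp was dim, with a mean of 3.04 log2 in controls and 3.11 in runners. Of 10 measured genes of phosphate and mineral handling, 5 were lower and 5 higher, 2 of the lower ones at an unadjusted p under 0.05. These were Kl, the FGF23 co-receptor klotho (-0.38 ± 0.15 SE; limma adjusted p = 0.642; -0.23 without control 5), and Alpl, the phosphatase that frees phosphate for mineral (-0.16 ± 0.063 SE; limma adjusted p = 0.644). Fgf23, whose hormone rises when Phex or Dmp1 is lost, differed by -0.21 ± 0.12 (SE; limma adjusted p = 0.741) and by -0.099 without runner 1.

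Genes around sclerostin were mostly on the lower side in runners. Of 13 measured, 12 were lower and 3 of those had an unadjusted p under 0.05, with 0 called and a median of -0.16. Of all genes 49.5% were lower, and 3.92% were lower at that p. Lower in runners as well were 9 of 9 hair cell, 7 of 7 erythroid, 7 of 7 fibrocyte and 9 of 10 neutrophil markers. Of the cerebellar markers 1 of 5 was lower, and of the skeletal muscle markers 4 of 6. Sfrp4, a secreted Wnt antagonist of bone, was at 7.42 ± 0.11 (SD) in controls and 7.10 ± 0.073 (SD) in runners, with no overlap (difference -0.32 ± 0.064 SE; limma adjusted p = 0.293). Dkk1, which like sclerostin blocks the Wnt co-receptors, differed by -0.20 ± 0.063 (SE; limma adjusted p = 0.592). Lrp4, the receptor that presents sclerostin, differed by -0.16 ± 0.068 (SE), and its targets Lrp5 and Lrp6 by -0.13 ± 0.069 and -0.034 ± 0.057 (SE). Of 9 other genes linked to osteocytes 8 were lower, 2 at an unadjusted p under 0.05, led by the matrix protein Tnc (-0.27 ± 0.081 SE) and the osteocyte process protein Pdpn (-0.15 ± 0.066 SE).

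On the osteoclast side, the RANKL and M-CSF list held 14 lower and 4 higher of 18 measured genes, 3 and 1 at an unadjusted p under 0.05 and 0 after adjustment. Beside this, 49.5% of all genes were lower, and 3.92% were lower at that p. Lists of other cell types leaned the same way, such as 9 of 9 hair cell markers, while 1 of 5 cerebellar markers was lower. Bcl6, a transcriptional repressor that restrains osteoclast genes and acts in many immune cells, differed by 0.51 ± 0.084 (SE; limma adjusted p = 0.141), and passed without runner 1 (limma adjusted p = 0.0129). Fcer1g, a signalling adaptor of myeloid cells, differed by -0.37 ± 0.098 (SE; limma adjusted p = 0.536). For RANKL itself, Tnfsf11, the difference was 0.013 ± 0.12 (SE), for its receptor Tnfrsf11a it was -0.055 ± 0.061 and for Nfatc1, the transcription factor they induce, -0.045 ± 0.086. Tnfrsf11a was dim, with a mean log2 value under 5. Tnfrsf11b, which encodes osteoprotegerin, differed by -0.39 ± 0.15 (SE; limma adjusted p = 0.638), and by -0.55 without runner 1 (limma adjusted p = 0.0487). It passed there, as did Bcl6, among 0.333% of all genes. The M-CSF receptor Csf1r, which macrophages carry too, differed by -0.20 ± 0.071 (SE; limma adjusted p = 0.607). Without runner 1 and control 1, Fcer1g (-0.49; limma adjusted p = 0.0381) and Csf1r (-0.28; limma adjusted p = 0.0406) passed too, among 1.41% of all genes. Tnfsf11, Tnfrsf11a, Nfatc1, Tnfrsf11b, Csf1r, Fgf23, Lrp4, Lrp5, Lrp6, Mmp9, Tcirg1, Atp6v0d1 and Col1a1 were picked out of their lists for their roles, after their values had been seen.

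Genes of the resorbing machinery were spread around a small negative median of -0.086. Of 17, 12 were lower and 5 higher, where 49.5% of all genes were lower. Of the lower, 3 had an unadjusted p under 0.05, where 3.92% of all genes were lower at that p, with 0 called. The membrane metalloprotease Mmp14 (-0.23 ± 0.079 SE) and the integrin chain Itgb3, which anchors the sealing zone (-0.28 ± 0.10 SE), led them. The secreted protease Mmp9 differed by -0.050 ± 0.12 and Tcirg1, the pump's osteoclast a3 subunit, by -0.086 ± 0.080 (SE). Of 15 proton pump genes 9 were higher and 6 lower with none at an unadjusted p under 0.05, and Atp6v1a (0.11 ± 0.067 SE) and Atp6v1h (0.11 ± 0.081 SE) had the smallest p. Atp6v0d1, the widespread counterpart of Atp6v0d2, differed by 0.069 ± 0.058 (SE). Of 9 cathepsin genes related to Ctsk 7 were lower, 1 at an unadjusted p under 0.05, with Ctsc (-0.21 ± 0.089 SE) and Ctsz (-0.16 ± 0.077 SE) first.

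**Figure D4:**
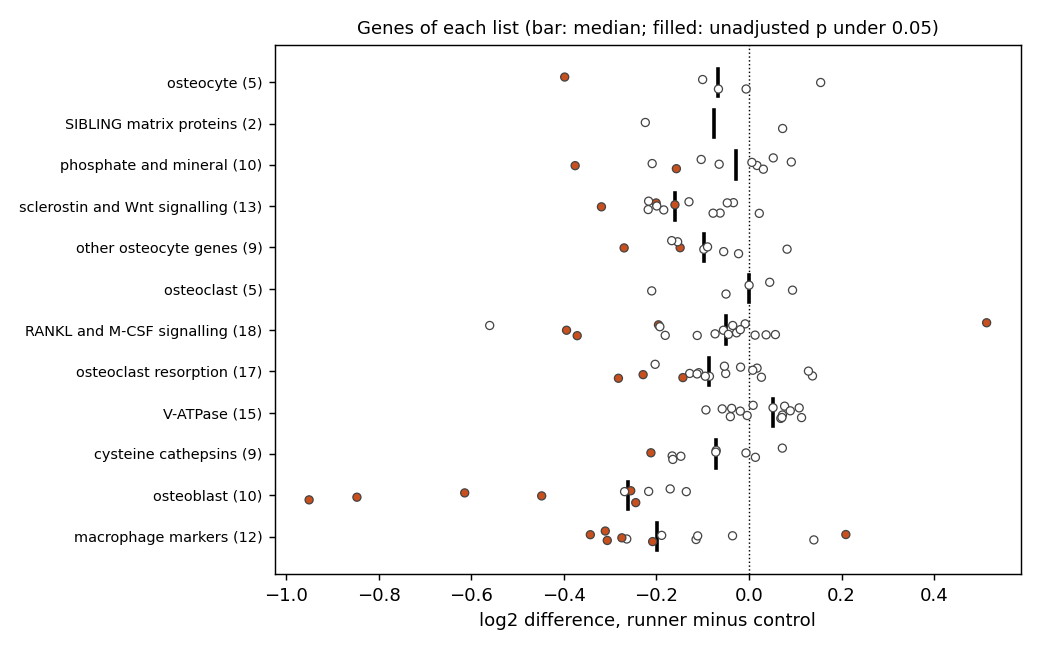
Difference of every measured gene (horizontal axis, log2, runner minus control) in the 12 lists, whose measured number stands in brackets, with the list median as a bar and genes at an unadjusted p under 0.05 filled. The osteocyte and osteoclast members have medians of -0.066 and 0.0002, and the osteoblast list, at -0.26, lies farthest below 0.

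No pair of members had a correlation across arrays that passed after adjustment. Of 45 pairs, 32 had a Pearson r above 0, 4 reached an unadjusted permutation p under 0.05 and 0 an adjusted one. Sost and Acp5 had the highest correlation over the 10 arrays, with r = 0.777 (permutation p = 0.0129, adjusted 0.462) and Spearman rho = 0.721 (permutation p = 0.0242, adjusted 0.698). It was 0.472 without runners 1 and 4, the arrays farthest from the median of Sost. Sost and Mepe had r = 0.745 (permutation p = 0.0206, adjusted 0.462), rho = 0.527 (permutation p = 0.122, adjusted 0.698), and r = 0.654 without the same arrays. Mepe and Acp5 had r = 0.692 (permutation p = 0.0331, adjusted 0.462) and rho = 0.430 (permutation p = 0.222, adjusted 0.698), and r was -0.00979 without runners 1 and 2. Mepe and Dcstamp had r = 0.679 (permutation p = 0.0411, adjusted 0.462) and rho = 0.358 (permutation p = 0.313, adjusted 0.741), and r was 0.472 without those arrays. All 4 pairs were of genes highest on runner 1, and without that array alone their r was 0.490, 0.425, 0.262 and 0.309. For some other pairs r was higher without it, going from 0.511 to 0.793 for Acp5 and Ctsk, from 0.368 to 0.808 for Mepe and Fam20c and from 0.359 to 0.757 for Sost and Fam20c. For others it was lower, going from 0.359 to -0.338 for Sost and Dcstamp and from -0.124 to -0.457 for Dmp1 and Sost. These pairs were picked after their values had been seen, and no p is given for r without runner 1.

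For each member, the genes whose levels were most like it over the 10 arrays were taken from 12483 named genes with a mean log2 of at least 5, by Pearson r, as a description. Phex had by far the most company, with 153 genes at r of 0.9 or more, led by Scara3 (0.979) and Unc13b (0.978). Of the bone and marker lists, Alpl, Lef1, Tnc, Csf1r, Mmp14, Mrc1, C1qb, Slc4a1 and Slc26a5 reached 0.9 with Phex. Slc26a5, with a mean under 5, was outside the 12483 genes searched. The median r of Phex was 0.846 with hair cell, 0.775 with erythroid and 0.751 with fibrocyte markers, and -0.715 with cerebellar markers. It was 0.787 with the sclerostin list, 0.752 with osteoblast genes and 0.271 with the other 4 osteocyte genes. What lay behind these values was not tested. Sost had 46 genes at r of 0.9 or more, led by Gpx2 (0.976) and H2-M3 (0.972), and Capg and Ctss of the lists were at 0.9 or more. Fam20c had 7, with Ric8 (0.960) and Mcrs1 (0.924) first, Slc4a2 of the resorption list among them, and Acp5 had 4, with Mpst (0.971) and Bcar3 (0.922). The others had 0 to 2. Dmp1 was most like Ms4a6d (0.9) and Errfi1 (0.873), Mepe like Zfp296 (0.915) and Stk39 (0.908), and Ctsk like Grap (0.921) and Rftn2 (0.915). Ocstamp was most like Alkbh2 (0.938) and Ngef (0.917), Dcstamp like Ccdc167 (0.911) and Mthfs (0.769), and Atp6v0d2 like Crk (0.914) and Whsc1 (0.898). These genes share the arrays and their normalization with the members, and each was picked as the highest of 12483.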

How the data were processed

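Inner ear tissue was frozen and powdered, and its total RNA was biotin-labelled with Affymetrix's WT PLUS reagents, per the labels' protocols. The authors deposited log2 values per probe set for each array. RMA and Partek, without versions, are the tools in the submitters' processing notes, while the build and filters used were not given in the sources used here. RMA equalizes the arrays' distributions, so a shift shared by most genes cannot be seen.

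Of 39295 probe sets the platform annotation gave 30130 a single symbol, 2146 several symbols and 7019 no symbol. The brightest probe set of a gene was kept, leaving 29765 genes. Groups came from the labels' titles. In R 4.3.3, lmFit and eBayes of limma 3.58.1 compared the groups gene by gene (two-sided), and p-values were adjusted by Benjamini-Hochberg over all genes at a threshold of 0.05. The script was tested on simulated data. Array medians lay between 5.35 and 5.43 log2 and correlations between arrays between 0.991 and 0.997. The number of arrays limits precision. SEs are moderated, and fold is 2 to the power of a difference's size. Pairs of members were correlated with 100000 permutations, adjusted over 45 pairs.

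By rule, the genes named are the members, the 2 of smallest p in each list, the 2 most like each member, and Bglap and Bglap2. Outside the rule, genes picked for their roles and list genes with r of 0.9 or more to a member were named after their values were seen. For marker lists other than macrophages, the differences of single genes are not printed. The members, lists and tests were chosen with earlier results of these data known. Alternatives were a filter on genes with a mean under 5, trended and robust or no moderation, repeated quantile normalization, centring on array medians, weighting of arrays, averaged probe sets, updated symbols, a replicate block, a threshold of 0.1 and leaving out arrays. Plots were made in matplotlib 3.10.9.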

Additional observations from a re-analysis of the deposited data

How the results depend on the processing

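No member was called under any of the 21 alternatives. The members' 198 recomputed differences kept their direction in 184 and turned in 14, all of them in Sost, Mepe, Acp5 and Atp6v0d2, whose differences were near 0. Mepe was at 0.017 when arrays were centred on their median, and Acp5 at -0.014 without runner 1 and control 1. With 1 array left out in turn, the differences ranged from -0.055 to 0.023 for Mepe, -0.020 to 0.084 for Acp5, -0.086 to 0.11 for Atp6v0d2, -0.18 to 0.013 for Sost, -0.11 to 0.094 for Tnfsf11, -0.10 to 0.015 for Nfatc1 and -0.16 to 0.0018 for Mmp9. Without a turn of sign they ranged from -0.28 to -0.13 for Ctsk, -0.094 to -0.013 for Ocstamp and 0.021 to 0.15 for Dcstamp. The cause was not tested.

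The members at an unadjusted p under 0.05 numbered 2 instead of 1 without moderation, and 1 to 2 with 1 array left out. The additional gene was Fam20c without moderation or without runner 5, Ctsk without control 5, Sost without runner 1 and Dmp1 without runner 2, at an adjusted p in limma of 0.305 to 0.918. Phex was among them in every alternative, with an adjusted p between 0.0600 and 0.992. Over all genes the 2 calls became 1 without moderation, where Bglap2 lost its call (limma adjusted p = 0.0750), 15 with array weights, 2 to 99 with 1 array left out, the 99 without runner 1, and 420 without runner 1 and control 1. The last was added because earlier results set those arrays apart.

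With the replicate number as a block, Phex differed by -0.40 (limma adjusted p = 0.716), 0 members and 2 genes were called. The labels do not say that the numbers pair the samples. Deviations of same-numbered arrays correlated at -0.25 to 0.277, and 1 of 5 runners was most like the control of its own number. With only 5 arrays in a group, these values cannot exclude a pairing. No pair of members passed the adjusted correlation test in 14 alternatives chosen after the data were seen. Ocstamp and Dcstamp, under a mean of 5, had no value with the filter on dim genes.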
